A study of Mus musculus with 4 samples.

Results

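Dense clusters of JunB peaks are stretches of the mouse genome in which the transcription factor JunB was found at many neighbouring places in activated regulatory T (Treg) cells. They were chosen by the positions of the JunB peaks alone. Neighbouring JunB peaks were joined where their centres lay no more than a fixed distance of just over 12 kb apart, and joined regions with 4 or more JunB peaks were kept. This gave 940 dense regions among the 20296 regions that the 29659 JunB peaks form, and they held 5060 JunB peaks (17.1%). The other peaks lay in 4202 regions of 2 or 3 JunB peaks and at 15154 lone sites. The peaks of BATF and IRF4 were not used to choose the regions.

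The study examined by chromatin immunoprecipitation-sequencing (ChIP-seq) where JunB, BATF and IRF4 bind in Treg cells, and whether IRF4 binding depends on JunB. CD4+CD25+ Treg cells were isolated from spleens of C57BL/6 mice, sex-matched and 6 to 12 weeks old by the methods of the study, and activated for 60 h with antibodies to CD3 and CD28 in the presence of IL-2. All 3 factors were precipitated from Junb-sufficient cells, and in Junb-deficient cells IRF4 was, with 1 library per condition. The deposited lists give positions only, so a peak was scored as listed or not listed in a library, and no test between genotypes was possible. The sample labels call the genotypes Foxp3cre JUNB+/+ and Foxp3cre JUNBFl/Fl, in which Cre is made in Foxp3-expressing cells, whereas the paper gives Junb fl/fl mice and Cd4Cre Junb fl/fl mice, in which Cre is made in all CD4-lineage T cells. Libraries were named by their titles. One label field, that of the antibody, has BATF and IRF4 the other way round for Junb-sufficient cells.

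JunB and BATF are members of the AP-1 family of basic leucine zipper factors, which bind DNA as dimers at the sequence TGACTCA. IRF4, an interferon regulatory factor induced by T cell receptor signals, binds weakly by itself and joins BATF-JUN dimers at composite AP-1 and IRF elements called AICEs. In T cells these factors act together at enhancers, and clusters of enhancers often lie at genes that define or control a cell type. A Treg cell restrains other immune cells, and its effector form carries inhibitory and costimulatory receptors such as CTLA-4, ICOS and TIGIT.

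The JunB peak that stood highest in the JunB list, outside annotated exons, is shown for 8 of the dense regions, since these peaks differ in the elements they carry. Sequences are from the mm9 reference, plus strand, and capitals mark TGACTCA on either strand, TGACGTCA, or an AICE (here GAAA directly before TGANTCA, or TTTC and TGANTCA with any 4 bases between them, on either strand). The peaks lie at chr13:113187010-113187160 (Il6st region, intergenic), chr1:60995927-60996077 (Ctla4 region, intergenic), chr15:9485739-9485889 (Il7r region, intergenic), chr13:45951614-45951764 (intron of Atxn1), chr12:74989113-74989263 (Hif1a region, intergenic), chr15:62653260-62653410 (region with Myc as the nearest gene, intergenic), chr6:99247500-99247650 (Foxp1 region, intron of Eif4e3) and chr5:14982277-14982427 (Gm9758/Speer4e region, intergenic).
Il6st: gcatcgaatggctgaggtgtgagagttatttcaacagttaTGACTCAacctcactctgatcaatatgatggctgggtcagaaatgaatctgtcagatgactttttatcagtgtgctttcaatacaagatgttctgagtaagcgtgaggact
Ctla4: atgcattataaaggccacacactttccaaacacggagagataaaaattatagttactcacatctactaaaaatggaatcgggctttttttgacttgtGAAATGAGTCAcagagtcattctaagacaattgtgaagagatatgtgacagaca
Il7r: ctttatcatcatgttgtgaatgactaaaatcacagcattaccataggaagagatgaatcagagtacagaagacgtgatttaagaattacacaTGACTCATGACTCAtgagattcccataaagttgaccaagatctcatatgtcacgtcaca
Atxn1: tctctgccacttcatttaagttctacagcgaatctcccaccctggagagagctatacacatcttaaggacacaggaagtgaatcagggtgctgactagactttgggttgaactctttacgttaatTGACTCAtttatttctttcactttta
Hif1a: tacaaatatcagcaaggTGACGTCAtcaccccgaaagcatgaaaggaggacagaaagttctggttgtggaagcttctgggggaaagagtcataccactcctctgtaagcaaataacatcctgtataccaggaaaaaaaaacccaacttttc
Myc: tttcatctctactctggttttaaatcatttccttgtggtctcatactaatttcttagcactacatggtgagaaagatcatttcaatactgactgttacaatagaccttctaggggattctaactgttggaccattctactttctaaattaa
Foxp1: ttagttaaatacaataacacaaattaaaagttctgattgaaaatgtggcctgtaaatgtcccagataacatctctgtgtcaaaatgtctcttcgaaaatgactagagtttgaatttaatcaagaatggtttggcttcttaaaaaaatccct
Gm9758: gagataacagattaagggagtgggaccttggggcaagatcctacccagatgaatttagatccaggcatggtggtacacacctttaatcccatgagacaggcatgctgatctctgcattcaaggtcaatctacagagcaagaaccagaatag

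These 8 peaks differed in the elements they held and in their overlaps. The Il6st and Atxn1 peaks held 1 TGACTCA, and the Il7r peak held 2 of them end to end. The Ctla4 peak held 1 TGACTCA that is part of an AICE, and the Hif1a peak held TGACGTCA, the palindrome that ATF and CREB factors and AP-1 dimers with ATF partners bind. The Myc and Foxp1 peaks held none of these letters, and each overlapped a BATF peak and an IRF4 peak in both genotypes, as did the 5 peaks with an element. This was not so in every large region: chosen in the same way, the Cd69 peak, at place 1409, overlapped no peak of another list, the Nfkb1 peak overlapped Junb-deficient IRF4 alone, and the BC027231 peak lacked Junb-deficient IRF4. The Cd69 region also held a higher JunB peak, at place 357, which this choice left out. That peak overlapped BATF and IRF4 in both genotypes. The Gm9758 peak held none either, overlapped a BATF peak but no IRF4 peak, and differed in another way: all of its 31-base words occur at 2 or more places in the genome, whereas none did so in the other 7.

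The dense regions were mostly small. There were 431 regions of 4 JunB peaks and 242 of 5 (71.6% together), and 46 regions had 10 or more. The region spans ran from 2.2 kb to 158.2 kb with a median of 18.55 kb, and the median gap between neighbouring JunB centres within them was 3970.5 bp. At the threshold of the rule, the 1041 regions of 3 JunB peaks and the 431 regions of 4 were alike: 40.2% of JunB peaks in the former and 40.3% in the latter overlapped a BATF peak, and 49.9% and 48.0% overlapped a Junb-sufficient IRF4 peak. The joining distance had no natural break either, as 194 gaps between JunB centres fell within 500 bp below it and 208 within 500 bp above it. Dense-region JunB peaks stood higher in the JunB list than others. Their median place was at 32.7% of the list, against 43.3% in regions of 2 or 3 and 58.9% at lone sites. The order of the list is not named in its header, and place is used here as recorded.

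A dense region held a mean of 5.38 JunB peaks, 1.98 BATF peaks and 2.44 Junb-sufficient IRF4 peaks. BATF was present in 854 of 940 regions (90.9%), IRF4 in 886 (94.3%) and both in 840 (89.4%). Most of the regions therefore held all 3 factors, although 40 regions (4.26%) held neither BATF nor IRF4. Regions with many JunB peaks have more chances to hold another factor, so these counts are a description. Counted by JunB peak, 36.9% in dense regions overlapped BATF and 44.0% Junb-sufficient IRF4, against 32.9% and 42.8% of all JunB peaks. From the other side, the dense regions held 13.7% of all 13570 BATF peaks (95% interval 13.2 to 14.3%) but 7.37% of the 31093 Junb-sufficient IRF4 peaks (7.08 to 7.66%). Within them, 96.7% of BATF peaks and 94.2% of IRF4 peaks overlapped a JunB peak, against 66.6% and 35.97% outside. The region bounds were set by JunB peaks, so these last shares are a description. All intervals are exact binomial (Clopper-Pearson) intervals, cover counting error over peaks only, and do not cover variation between cell preparations.

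Some of the largest clusters lay in repeated sequence. In 43 regions (4.57%), holding 423 JunB peaks, the median JunB peak had at least 50% of its 31-base words repeated elsewhere in the genome, and these are called multi-copy regions here. The threshold was chosen after the values were seen, and in 832 of 940 regions the median JunB peak had under 1% of repeated words. Multi-copy regions made up 9 of the 20 regions with the most JunB peaks, 4 of the first 5, and 9 of the 28 regions with 11 or more. The region with the most, over Gm9758 and the Speer4e gene of a testis-expressed family (chr5:14900129-15058306), held 51 JunB peaks in 158.2 kb with 9 BATF peaks, 2 Junb-sufficient IRF4 peaks and 6 Junb-deficient ones. The next, at Speer4d on the same chromosome (chr5:15116411-15217974), held 39 JunB peaks with 3 BATF peaks and 1 IRF4 peak in each genotype. At 4930467E23Rik (chr8:19721107-19802569) there were 25 JunB peaks, 4 BATF peaks, and 7 IRF4 peaks in Junb-sufficient cells against 2 in Junb-deficient cells. The regions nearest Gm10921 on chromosome X and nearest C130026I21Rik on chromosome 1 each held 16 JunB peaks and no peak of any other list.

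Counted over all multi-copy regions, BATF and IRF4 were sparse. A BATF peak lay at 10.9% of their JunB peaks (95% interval 8.07 to 14.2%), a Junb-sufficient IRF4 peak at 8.98% (6.44 to 12.1%), and 4.73% had TGACTCA within 100 bp of the centre. The same values in the other 897 dense regions were 39.3%, 47.2% and 28.7%. Of the 40 regions with neither BATF nor IRF4, 19 were multi-copy. The reads were kept only where they had a unique position, and the part of repeated sequence in these clusters was not tested. Results below are given without the multi-copy regions where they differ.

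**Figure D1:**
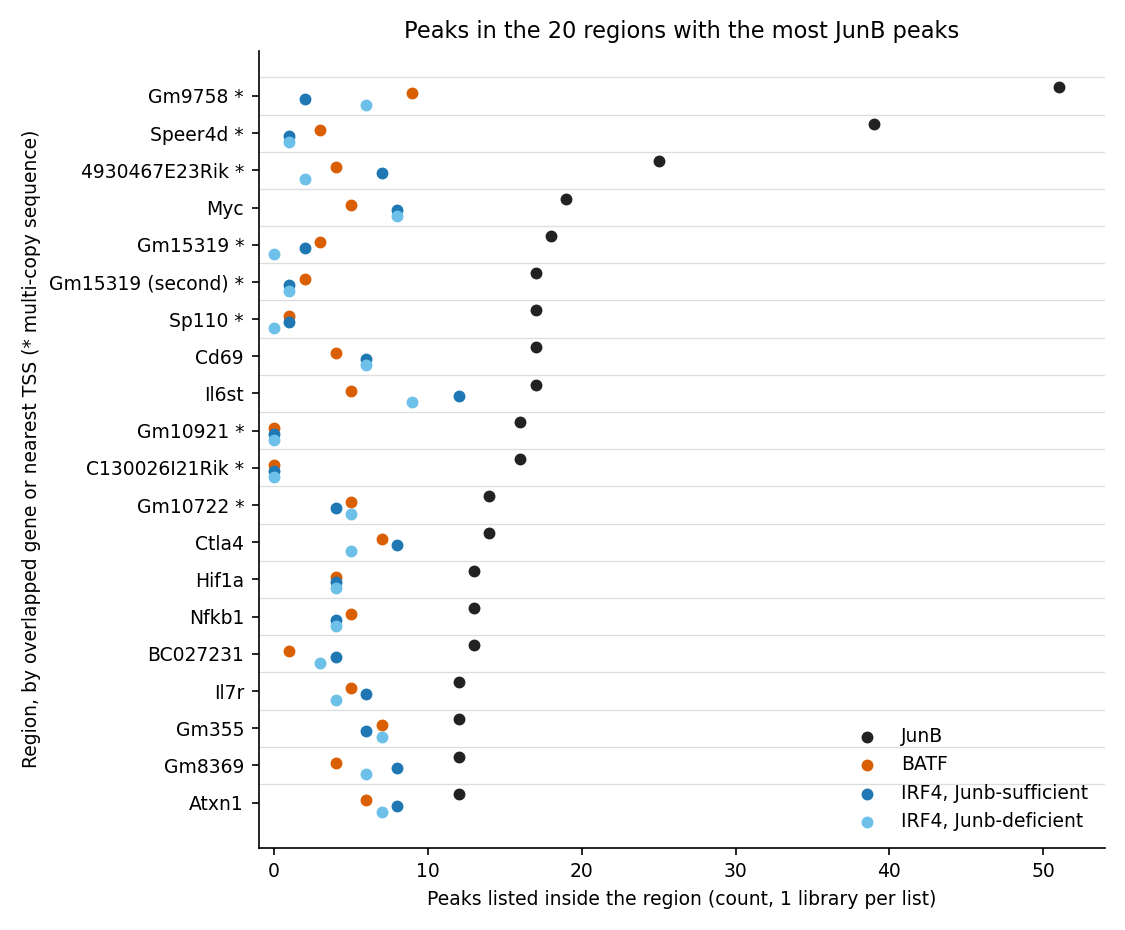
Number of peaks of each list (x axis, count) in the 20 dense regions with the most JunB peaks, named on the y axis by a gene they overlap or, if none, by the nearest transcription start site. Asterisks mark multi-copy regions, in which JunB counts of 14 to 51 stand beside at most 9 BATF peaks, while the Il6st region has 17 JunB and 12 Junb-sufficient IRF4 peaks.

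The largest clusters outside multi-copy sequence are described in order of their JunB peaks. The region with the most JunB peaks (chr15:62594381-62681486) held 19 in 87.1 kb. It overlapped no protein-coding gene, and the nearest transcription start site (TSS), that of the growth regulator Myc, was 775404 bp away, so the name says nothing about a target. It held 5 BATF peaks and 8 IRF4 peaks in each genotype, and each of the 8 positions was listed in both. The Cd69 region (chr6:129159073-129234738), around the gene of an early activation receptor that keeps lymphocytes in tissue, held 17 JunB peaks, 4 BATF peaks and 6 IRF4 peaks in each genotype. Of these 6 IRF4 peaks, 5 were at shared positions.

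The Il6st region (chr13:113175373-113267165) surrounds the gene of gp130, the signalling chain of the IL-6 receptor family, and was the richest in IRF4. It held 17 JunB peaks, 5 BATF peaks and 12 Junb-sufficient IRF4 peaks, 9 of which had a Junb-deficient counterpart. All 5 BATF positions carried JunB and had a listed IRF4 peak in Junb-deficient cells. Apart from the highest IRF4 peak, given below, these peaks stood much lower in the Junb-deficient list. They were at place 6233 against 467, 4952 against 620, 4129 against 1921 and 15781 against 9348. The 3 positions without a counterpart had no BATF peak, and they stood at places 6354, 2797 and 23499 of the IRF4 list. The highest IRF4 peak of the region, at place 40, was the one at the sequence with TGACTCA shown above, and its counterpart stood at place 52 of 29033.

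The Ctla4 region (chr1:60932350-60996077) spans the gene of the inhibitory receptor CTLA-4 and its downstream flank, and it held 14 JunB peaks, 7 BATF peaks and 8 Junb-sufficient IRF4 peaks. Only 4 of the 8 had a Junb-deficient counterpart. The 4 without one lay at chr1:60932088-60932700, chr1:60937827-60938439, chr1:60955491-60956103 and chr1:60965475-60966087, at places 1696, 2751, 1001 and 396 of 31093, so that all were in the first 10% of the list. The last 2 of them lie within the annotated Ctla4 gene. Of the 4, those at chr1:60932088-60932700 and chr1:60955491-60956103 overlapped a BATF peak in part and the others did not. The JunB peaks under these 2 IRF4 peaks (chr1:60932350-60932500 and chr1:60955591-60955741) overlapped no BATF peak. BATF lay on the neighbouring JunB peaks (chr1:60932804-60932954 and chr1:60956235-60956385), which overlapped no IRF4 peak. A shifted position was also seen. Next to each other lay a pair of JunB peaks (chr1:60943570-60943720 and chr1:60943982-60944132), the Junb-sufficient IRF4 peak covered the second, and the Junb-deficient IRF4 peak covered the first, where BATF was also listed. The pair of IRF4 peaks overlapped and so counts as shared. The Junb-deficient list also held a peak without a counterpart, at chr1:60962275-60962879 over a JunB peak, at place 1182 of 29033. The highest JunB peak of the region, with the AICE shown above, kept IRF4 at place 192 in Junb-sufficient cells and place 175 in Junb-deficient cells. The other shared IRF4 peaks stood lower in the Junb-deficient list, at place 386 against 274, 1094 against 635 and 24641 against 4807.

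**Figure D2:**
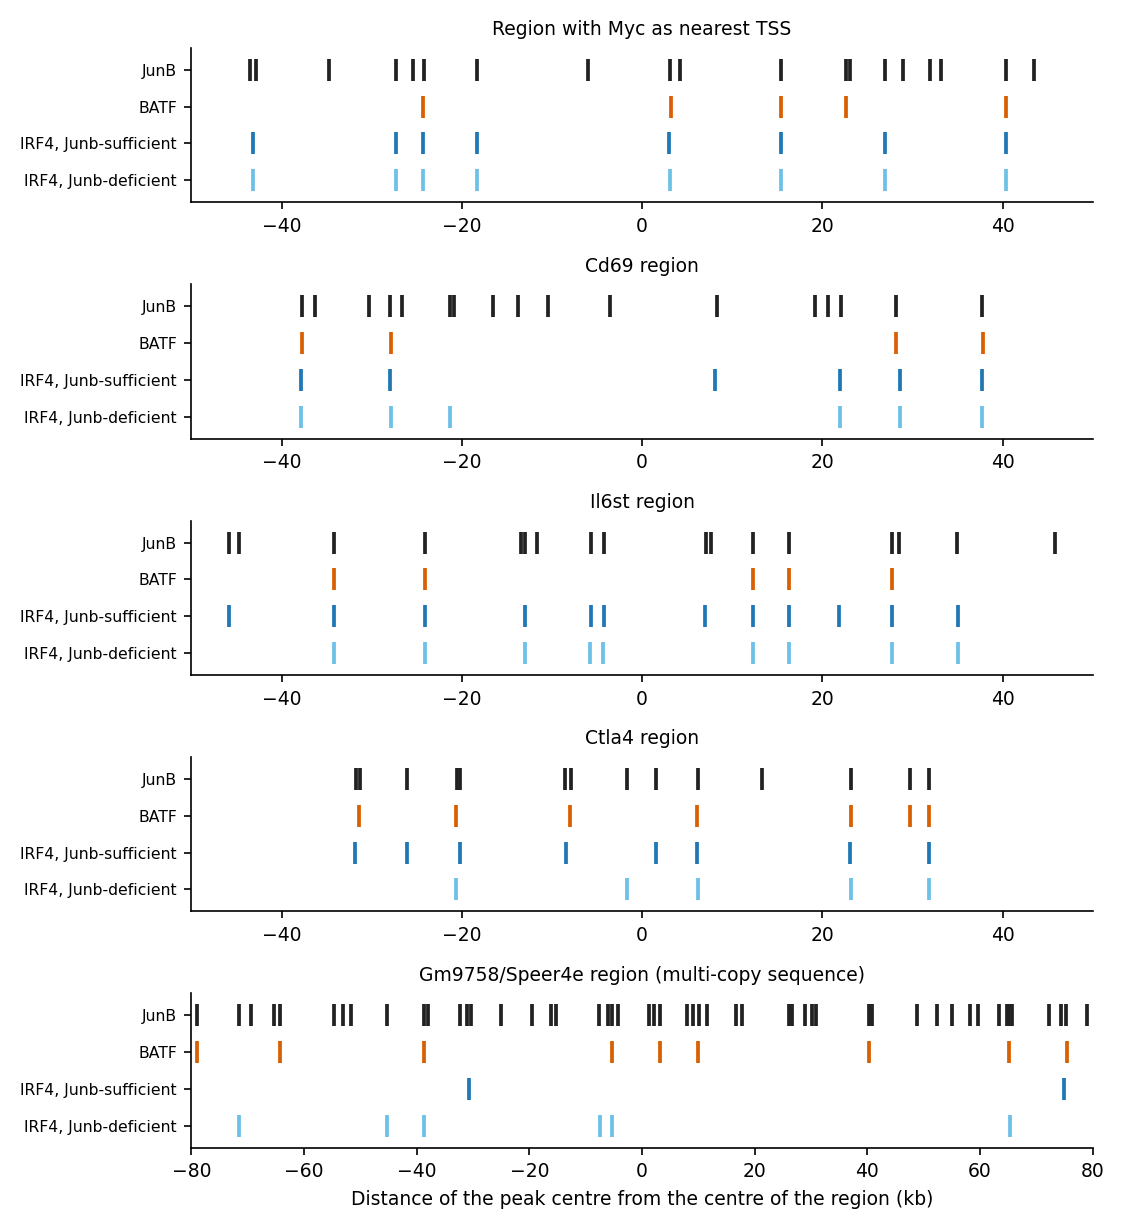
Centres of all listed peaks (ticks) in the 4 dense regions with the most JunB peaks outside multi-copy sequence and in the Gm9758/Speer4e region, with 1 row per list and the distance from the region centre in kb on the x axis. In the Ctla4 region 4 of 8 Junb-sufficient IRF4 ticks have no tick beneath them from Junb-deficient cells at an overlapping position, and in the Gm9758/Speer4e region 51 JunB ticks stand above 9 BATF ticks.

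The other large clusters held 12 or 13 JunB peaks each. Those at Hif1a, the oxygen-regulated factor, and Nfkb1, the NF-kB subunit p50, had 13 JunB peaks and 4 IRF4 peaks in each genotype. They had 4 and 5 BATF peaks, respectively. The cluster at BC027231, Gtpbp8 and Cd200r1, the receptor for the inhibitory ligand CD200, had 13 JunB peaks but 1 BATF peak. The Il7r cluster, at the alpha chain of the IL-7 receptor, had 12 JunB peaks, 5 BATF peaks and 6 Junb-sufficient against 4 Junb-deficient IRF4 peaks, and 3 of its JunB peaks had an AICE within 100 bp. The Ms4a6b cluster had 12 JunB peaks and 8 against 6 IRF4 peaks, and the intronic Atxn1 cluster had 12 and 8 against 7. The intergenic cluster whose nearest TSS is that of Gm355, 125364 bp away, held 12 JunB peaks, 7 BATF peaks and 6 against 7 IRF4 peaks.

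The regions with the most BATF peaks, apart from Gm9758/Speer4e with 9, each had 7. There were 5 regions with 7, of which 1 with fewer JunB peaks, at Rnf157 (9 JunB peaks, 8 against 7 IRF4 peaks), falls outside the 5 regions that the rule takes and was named after its values were seen. The other regions were the Ctla4 region, the Gm355-nearest region, the region over Foxp1 and Eif4e3 and the region whose nearest TSS, 114298 bp away, is that of Rbpj, which encodes the DNA-binding partner of Notch. Foxp1 encodes a forkhead factor of T cell quiescence. The Foxp1 region (chr6:99187402-99259624) and the Rbpj-nearest region (chr5:53785000-53832720) were alike, with 7 BATF peaks, 7 Junb-sufficient and 7 Junb-deficient IRF4 peaks each, and their highest JunB peaks stood at places 97 and 27 of the JunB list.

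Genes of the Treg and T cell lists lay at dense regions in a larger share than genes in general, of which 897 of 22380 protein-coding genes (4.01%) were overlapped by or nearest to one. The lists were chosen with earlier results of these data known, and gene length, which gives a long gene more chances, was not matched, so the counts are a description. Of 21 Treg effector genes, 9 (42.9%) were at a dense region: Icos, Ctla4, Tigit, Maf, Prdm1, Il10, Tnfrsf9, Pdcd1 and Havcr2. Of 7 Treg identity genes, 4 were (Il2ra, Il2rb, Ikzf2 and Nrp1), and Foxp3 was not among them. Of 11 T cell genes, 6 were, among them Cd3e, Cd3d, Cd3g, Cd247 and Cd28. The count was 11 of 20 for cytokine signalling genes, 2 of 6 for factors of conventional helper cells, 2 of 9 for IRF genes and 1 of 11 for AP-1 genes (Fosb). Of genes that mark other cells, 1 of 8 B cell genes (Ebf1), 0 of 8 myeloid genes and 0 of 10 genes of other tissues were at a dense region.

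The effector genes differed in how much of each factor lay there. Icos, the costimulatory receptor next to Ctla4, was the gene named for 3 regions with 17 JunB peaks, 8 BATF peaks and 11 Junb-sufficient against 10 Junb-deficient IRF4 peaks. The 2 regions of Tigit, an inhibitory receptor, held 12 JunB peaks, 7 BATF peaks and 7 IRF4 peaks in each genotype. Havcr2, the gene of the inhibitory receptor TIM-3, had 10 JunB peaks, 5 BATF peaks and 4 against 5 IRF4 peaks. Il10, the anti-inflammatory cytokine, had 10 JunB peaks, 5 BATF peaks and 4 IRF4 peaks in each genotype. The Prdm1 region, at the gene of the effector factor Blimp-1, had 7 JunB peaks and 3 peaks of each other list. The region nearest Maf, 14262 bp from its start, had 6 JunB peaks, 2 BATF peaks and 3 IRF4 peaks in each genotype. Tnfrsf9, the costimulatory receptor 4-1BB, and Pdcd1, the inhibitory receptor PD-1, had 5 and 4 JunB peaks.

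Among the identity genes, Ikzf2, which encodes Helios, was overlapped by 3 regions with 19 JunB peaks but 4 BATF peaks, and with 6 against 4 IRF4 peaks. The one at its start had 4 JunB peaks and no peak of another list. Il2ra, the high-affinity chain of the IL-2 receptor, had 10 JunB peaks and 2 peaks of each other list, and Il2rb had 5 JunB and 4 BATF peaks. Nrp1 had 6 JunB peaks. Of the T cell genes, Cd28 had 11 JunB peaks with 1 BATF peak and 2 against 4 IRF4 peaks, and Cd3e, Cd247 and the region shared by Cd3d and Cd3g had 4 JunB peaks each.

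Among the signalling genes and factors, Bach2, a repressor of effector programmes, was named for 5 regions with 27 JunB peaks, 10 BATF peaks and 13 against 12 IRF4 peaks. Ets1 was named for 4 regions with 23 JunB peaks, 8 BATF peaks and 8 against 5 IRF4 peaks, and Nfkb1 for 3 regions with 22, 7 and 8 against 7. The 4 regions nearest Gata3 lay 286010 to 1052921 bp from its start, held 18 JunB peaks, and had 12 peaks of each of the other lists. Irf4 itself had 2 regions with 11 JunB peaks, 5 BATF peaks and 5 against 4 IRF4 peaks, so the factor's own gene was among the loci with dense JunB. Stat3 was 1 of 11 regions in which every JunB peak overlapped a BATF peak, with 4 of each. The remaining genes, Stat4, Il4ra, Il6ra, Cish, Runx1, Bcl6, Rora, Irf2, Fosb and Ebf1, had 4 to 9 JunB peaks each. Bcl6 was named only as the nearest gene, with its TSS 162812 bp or more away.

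JunB peaks of dense regions overlapped BATF and IRF4 more often than lone JunB peaks, but less often than lone peaks at the same places of the JunB list. A BATF peak was overlapped by 36.9% of dense-region JunB peaks (1868 of 5060, 95% interval 35.6 to 38.3%), 39.4% of those in regions of 2 or 3 (38.5 to 40.4%) and 27.6% of lone peaks (26.9 to 28.3%), against 32.9% of all JunB peaks. For Junb-sufficient IRF4 the shares were 44.0% (42.6 to 45.4%), 49.6% (48.5 to 50.6%) and 38.2% (37.4 to 39.0%), against 42.8% of all. For Junb-deficient IRF4 they were 38.5%, 41.0% and 29.95%, against 34.9% of all. Both BATF and Junb-sufficient IRF4 were overlapped by 32.3% of dense-region JunB peaks (31.02 to 33.6%), and 51.4% overlapped neither. Without the multi-copy regions, 39.3% overlapped BATF and 47.2% IRF4.

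The place in the JunB list changed this order. In the first 10% of the list, BATF lay at 80.7% of dense-region JunB peaks outside multi-copy regions (655 of 812, 95% interval 77.8 to 83.3%), compared with 90.1% in regions of 2 or 3 (88.2 to 91.7%) and 96.8% of lone peaks (95.5 to 97.9%). For IRF4 the shares were 81.7%, 90.6% and 98.5%. In the last 10% of the list the order was turned: 20.7% of dense-region JunB peaks overlapped BATF (14.9 to 27.5%), against 11.6% in regions of 2 or 3 (9.39 to 14.2%) and 7.93% of lone peaks (6.79 to 9.18%). When the shares of the 10 parts of the list were weighted to the places of the dense-region peaks, the lone peaks had 46.1% with BATF and 56.2% with IRF4, above the 39.3% and 47.2% of the dense regions without multi-copy sequence. The direction of the difference from lone peaks thus depended on whether list place was taken into account.

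**Figure D3:**
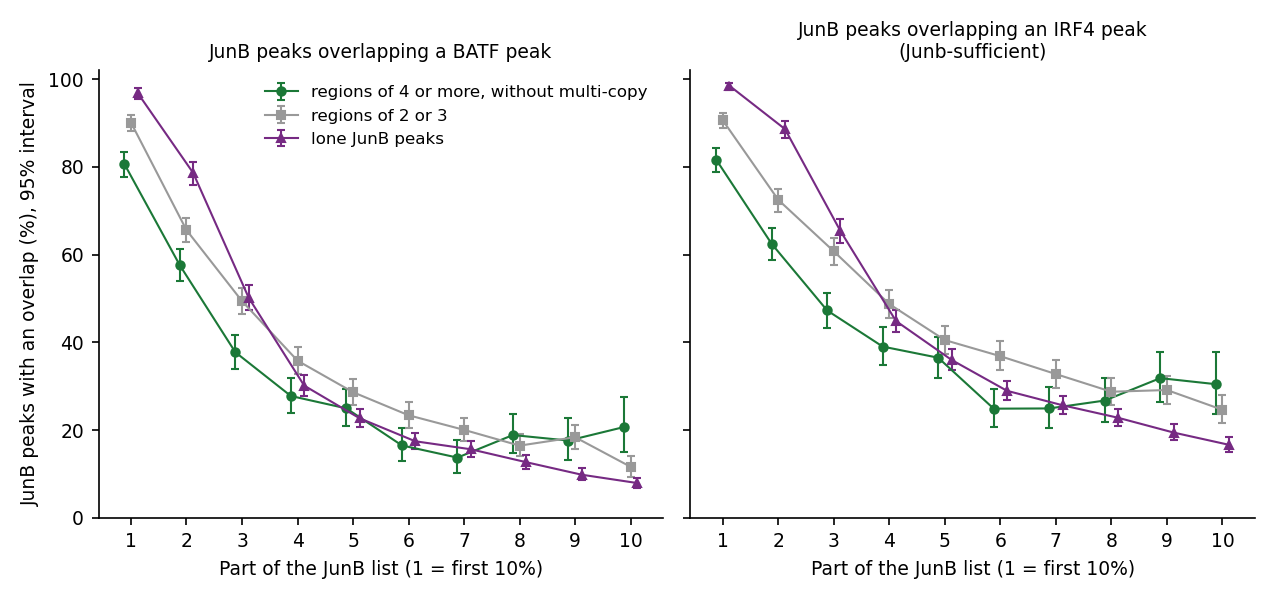
Share of JunB peaks (y axis, %) that overlapped a BATF peak (left) or a Junb-sufficient IRF4 peak (right) in 10 equal parts of the JunB list (x axis), for dense regions without multi-copy sequence, regions of 2 or 3 and lone peaks, with exact binomial 95% intervals. In part 1 the lone peaks are highest (96.8% with BATF) and the dense regions lowest (80.7%), and in part 10 the dense regions are highest (20.7%).

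Within dense regions the overlap also moved with how close the next JunB peak was. Among JunB peaks in the first 30% of the list, without multi-copy regions, 49.1% overlapped BATF where the nearest JunB centre was under 1.224 kb away (332 of 676, 95% interval 45.3 to 53.0%), 56.7% where it was 1.224 to 5 kb away (53.4 to 59.9%) and 80.2% where it was farther (76.7 to 83.4%). The lone peaks of the same part of the list had 72.9% (71.3 to 74.5%). IRF4 gave 52.1%, 60.9% and 87.9%, beside 82.5% for lone peaks. TGACTCA within 100 bp of the centre varied less, with 33.6%, 38.0% and 40.6%. Over the whole list, BATF gave 35.3%, 34.1% and 51.6% and IRF4 40.6%, 41.0% and 63.6%, so that there only the peaks more than 5 kb from their neighbours differed from the rest. The file headers record a minimum distance of 300 bp between JunB peaks but 1.224 kb between peaks of BATF and of Junb-sufficient IRF4, and 20.0% of the gaps inside dense regions were under 1.224 kb. A peak also had to exceed its 10 kb surroundings 4-fold, and this step took out 5.25% of the putative peaks of JunB, 36.2% of those of BATF and 37.4% of those of Junb-sufficient IRF4. The part of these settings in the lower overlap was not tested.

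Within dense regions, JunB peaks standing high in the list overlapped BATF and IRF4 more often than low ones, as over the whole JunB list. In the 897 regions outside multi-copy sequence, the first-listed JunB peak overlapped BATF in 73.6% (95% interval 70.6 to 76.4%) and Junb-sufficient IRF4 in 78.5% (75.6 to 81.1%), and the last-listed one in 17.7% (15.3 to 20.4%) and 26.8% (23.9 to 29.8%). Over all JunB peaks, BATF lay at 88.7% in the first 10% of the list and at 9.54% in the last 10%. For Junb-sufficient IRF4 these shares were 89.4% and 19.3%. In 862 of the 897 regions at least 1 JunB peak overlapped neither factor. Counted by peak, 48.3% of the JunB peaks in these regions overlapped neither, against 54.3% of all JunB peaks. In 816 of the 897 regions some but not all JunB peaks overlapped BATF, and in 11 all did. These 11 regions, named after their values were seen, each held 4 JunB peaks and were at or nearest to Asxl1, Gtdc1, Nfil3, Ccr2, Fam71f1, Stat3, Med13, Tbc1d30, Polk, Mreg and Asap1. The shares were slightly lower in larger regions: BATF was overlapped by 40.7% of JunB peaks in regions of 4 (38.3 to 43.0%) and 35.4% in regions of 11 or more (29.4 to 41.8%), and IRF4 by 48.5% and 44.9%, with intervals that overlap for both factors.

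The AP-1 element was about as common in dense regions as in regions of 2 or 3. TGACTCA on either strand lay within 100 bp of the centre of 26.7% of dense-region JunB peaks (25.5 to 27.9%), 28.7% without multi-copy regions, 29.3% of those in regions of 2 or 3 and 20.8% of lone peaks, against 24.5% of all JunB peaks. Windows of the same length 5 kb downstream, clear of peaks, held it in 3.49% for dense regions. Among JunB peaks that overlapped neither BATF nor IRF4, TGACTCA was present at 20.0% in dense regions (18.5 to 21.6%). It was present at 17.6% in regions of 2 or 3 (20.8% in regions of 3) and at 7.84% of lone peaks (7.30 to 8.41%). Among JunB peaks that overlapped both, it was present at 37.2% in dense regions, 42.7% in regions of 2 or 3 and 43.5% of lone peaks. List place was not taken into account in these shares. The AICE was rare: 3.14% of dense-region JunB peaks had one (2.68 to 3.66%). It was in 2.88% of those in regions of 2 or 3, 2.22% of lone peaks and 0.171% of the downstream windows. Among peaks with both BATF and IRF4, 5.99% in dense regions, 5.12% in regions of 2 or 3 and 5.60% of lone peaks had one. TGACGTCA, as in the Hif1a sequence, was in 12 of 5060 dense-region JunB peaks and 73 of all 29659. At least 1 JunB peak with TGACTCA was found in 725 of 940 regions (77.1%), a count that depends on how many JunB peaks a region holds.

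Of the JunB peaks in dense regions, 35.8% lay within 10 kb of a protein-coding TSS (34.5 to 37.2%), compared with 33.5% in regions of 2 or 3, 26.4% of lone peaks and 30.3% of all, and 86.9% lay within 100 kb, compared with 84.0%, 70.6% and 77.6%. Gene bodies held 54.1% of them and 48.7% of all JunB peaks. As a description of the dense regions alone, 665 of 940 regions (70.7%) overlapped a protein-coding gene and 350 (37.2%) held a TSS, while 76 overlapped no gene and had their nearest TSS over 100 kb away. Outside multi-copy sequence, regions that held a TSS had means of 5.52 JunB, 2.13 BATF and 2.69 Junb-sufficient IRF4 peaks, and regions without one had 4.96, 1.96 and 2.401. Chromosome 1 had the most dense regions (111), and chromosome X had 15.

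The dense regions held 2290 IRF4 peaks in Junb-sufficient cells and 2065 in Junb-deficient cells, which is 90.2% as many, while the whole Junb-deficient list was 93.4% as long. The number of IRF4 peaks was the same in 509 regions (54.1%), lower in 305 (32.4%) and higher in 126 (13.4%) in Junb-deficient cells. Equal counts include regions with none in either genotype and regions whose peaks lay at different positions. It differed by 2 or more in few regions, 55 with fewer and 18 with more. Of 425 regions with 3 or more Junb-sufficient IRF4 peaks, every peak had an overlapping Junb-deficient peak in 166 (39.1%), exactly 1 lacked it in 197 and 2 or more in 62. None had it in 3 regions. Over all 940 regions, 31 (3.30%) had an IRF4 peak in Junb-sufficient cells and none in Junb-deficient cells. By peak, 35.0% of all Junb-sufficient IRF4 peaks and 22.3% of those in dense regions had no Junb-deficient counterpart. A region with more IRF4 peaks has more chances to hold such a peak, so these region counts are a description. The 3 regions without any counterpart, named after their values were seen, were at Arhgap12 and nearest to Trib2 and Lrrc8d.

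**Figure D4:**
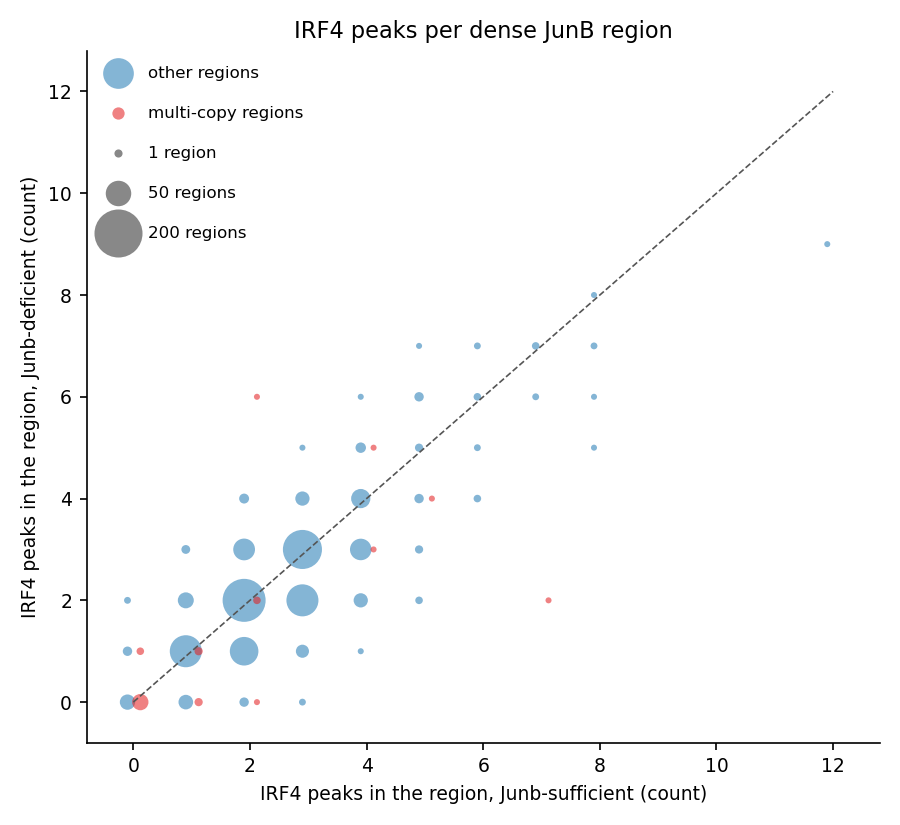
Number of IRF4 peaks per dense region in Junb-sufficient (x axis) and Junb-deficient cells (y axis), where the area of a point grows with the number of regions and the dashed line marks equal counts. Of 940 regions, 509 lie on the line, 305 below it and 126 above it, and the red points, drawn slightly to the right of the blue ones, are the 43 multi-copy regions.

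The regions with the largest deficits were 4930467E23Rik, a multi-copy region with 7 against 2 IRF4 peaks, and 8 regions with 3 fewer. Of these, the rule for named regions took Il6st (12 against 9), Ctla4 (8 against 5), Ifnar1 (5 against 2) and Lpin2 (5 against 2). Ifnar1 encodes a chain of the type I interferon receptor, and the region nearest it (chr16:91443766-91476270) had 8 JunB and 4 BATF peaks. Lpin2, a phosphatidate phosphatase gene, had 6 JunB and 4 BATF peaks (chr17:71534140-71564766). The largest excesses, after Gm9758/Speer4e (2 against 6), were of 2 peaks, among them those at Cd28 (2 against 4), Bcl2 (4 against 6) and the interferon-induced GTPase genes Gbp7 and Gbp3 (5 against 7). With 1 deposited library per genotype, none of these differences in peak counts can be told apart from variation between preparations. Separately, the paper reports ChIP followed by PCR, with lower IRF4 binding in Junb-deficient cells at sites near genes that include Ctla4, Icos and Maf.

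Counted by peak, 22.3% of the 2290 Junb-sufficient IRF4 peaks in dense regions had no Junb-deficient counterpart (95% interval 20.6 to 24.1%), against 35.0% of all 31093 and 35.98% of those outside dense regions. Of the IRF4 peaks in dense regions 94.2% overlapped JunB, and of those outside 35.97%. Among JunB-shared IRF4 peaks alone the shares were 21.4% in dense regions (461 of 2157, 19.7 to 23.2%) and 24.3% outside (23.5 to 25.1%). Without regard to place in the IRF4 list, the shares differed more with BATF than between dense regions and outside. The contrast by BATF was not set at the same list places. In dense regions, 14.95% of IRF4 peaks shared with JunB and BATF lacked a counterpart (13.3 to 16.8%), against 41.3% of those shared with JunB but not BATF (37.1 to 45.7%), and outside the values were 16.7% and 42.7%. In the other direction, 13.8% of the Junb-deficient IRF4 peaks in dense regions had no Junb-sufficient counterpart (12.3 to 15.4%), against 30.4% of all 29033. At JunB peaks it was 10.4% in dense regions (9.03 to 11.8%) and 6.77% outside (6.24 to 7.33%).

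Place in the IRF4 list again turned the order. In the first 30% of the list, JunB-shared IRF4 peaks lacked a counterpart at 16.03% in dense regions without multi-copy sequence (276 of 1722, 95% interval 14.3 to 17.8%) and 11.1% outside (10.3 to 11.9%). Weighted over all 10 parts to the places of the dense-region peaks, 13.8% of the peaks outside lacked one, against 21.0% in the dense regions. The share moved with the number of JunB peaks within 5 kb of the IRF4 centre, inside and outside alike. With 1 JunB peak it was 10.2% in dense regions (7.89 to 13.0%) and 8.78% outside (7.94 to 9.69%), with 2 it was 17.4% (14.6 to 20.4%) and 15.5% (13.7 to 17.4%), and with 3 or more it was 21.3% (17.6 to 25.3%) and 23.9% (18.6 to 29.96%). At each number of JunB neighbours the intervals inside and outside overlapped. The requirement of 4-fold over the surrounding 10 kb applied to both IRF4 lists and removed 37.4% and 36.2% of their putative peaks, and its part in this pattern was not tested.

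**Figure D5:**
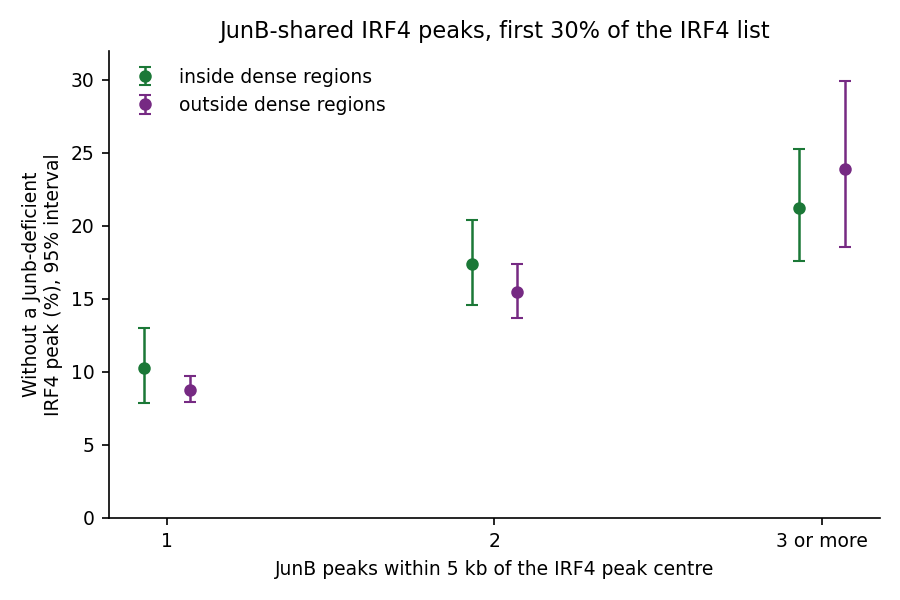
Share of JunB-shared IRF4 peaks of Junb-sufficient cells without a Junb-deficient IRF4 peak (y axis, %, exact binomial 95% intervals), by the number of JunB peaks within 5 kb (x axis), for the first 30% of the IRF4 list. The share is 10.2% and 8.78% with 1 JunB peak and 21.3% and 23.9% with 3 or more, inside dense regions without multi-copy sequence and outside, respectively.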

How the data were processed

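The processed data were 4 peak lists, 1 per library, from ChIP-seq of JunB, BATF and IRF4 in Junb-sufficient and IRF4 in Junb-deficient Treg cells. By the methods of the study, chromatin was cut with micrococcal nuclease, reads were aligned to mm9 with Bowtie2 keeping unique alignments, and the authors called peaks with HOMER (version 4.8 per the labels). The score column of the deposited lists is 1 for every peak and held no information, so the order of a list was used as the place of a peak. Per the file headers, 27399986, 26496780, 23914441 and 21127029 tags gave 29659, 13570, 31093 and 29033 peaks of 151, 613, 613 and 605 bp (JunB, BATF, IRF4 in Junb-sufficient cells, IRF4 in Junb-deficient cells), with a minimum of 10 tags for JunB and 19 for the others at a false discovery rate of 0.001. The tag densities in the same headers correspond to 16.02, 16.106, 17.3 and 17.912 M tags used, which puts the lists in the opposite order of depth. The lists therefore differ in depth and settings, which limits how counts compare between them.

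JunB peaks were joined at 12.5 kb between centres and regions with 4 or more kept. Peaks that share at least 1 bp were counted as overlapping, and a peak of another list was counted in a region when it shared at least 1 bp with the stretch from the first to the last JunB peak. Regions were named by the protein-coding genes of GENCODE vM1 (mm9) that they overlap, otherwise by the nearest TSS. Named regions were the 20 with the most JunB peaks, the 5 with the most BATF peaks and the 5 with the largest deficit and excess of IRF4 in Junb-deficient cells, beside the genes of the lists. A few items that this rule names are not reported here. Members and lists were chosen with earlier results of these data known, and the definition of multi-copy regions (31-base words, 50%) after the values were seen. With 1 library per condition no test between conditions was run, and intervals are exact binomial (Clopper-Pearson, 95%). The scripts were tested on simulated peak lists with known clusters. Python 3.11.15, NumPy 2.4.6, pandas 2.3.3, SciPy 1.17.1 and matplotlib 3.10.9 were used. Alternatives are given in the closing section.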

Additional observations from a re-analysis of the deposited data

How the results depend on the processing

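With 1 library per condition, no replicate could be left out. No paired analysis was possible because each condition has 1 library and no test between conditions was run. The values moved as follows from 940 regions, 17.1% of JunB peaks, 36.9% of these with BATF, 44.0% with IRF4 and 22.3% of Junb-sufficient IRF4 peaks without a Junb-deficient one, in that order. A joining distance of 5 kb gave 279, 4.27%, 24.6%, 28.2% and 27.95%, and 25 kb gave 1532, 32.3%, 39.8%, 49.5% and 25.1%. At least 3 JunB peaks gave 1981, 27.6% and 46.2% with IRF4, and at least 6 gave 267, 7.17%, 33.8%, 39.3% and 24.1%. The first 50% of the JunB list gave 380, 13.5% (of the JunB peaks in that part of the list), 41.0% and 46.6%. Centres within 100 bp gave 32.6% with BATF, 38.3% with IRF4 and 31.3% of IRF4 peaks without a counterpart, and the first 50% of the IRF4 list gave 19.2% without one. Taking the antibody field of the labels exchanges the BATF and IRF4 shares (44.0% and 36.9%). Among alternatives chosen after seeing the data, leaving out multi-copy regions gave 15.6% of JunB peaks, 39.3% and 47.2%, and widening JunB peaks to the 613 bp of BATF peaks gave 41.5% and 49.7%. The causes were not tested. The number of regions that overlap a gene was 665 with protein-coding genes and 728 with all annotated genes.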

Other observations

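In some smaller dense regions every Junb-sufficient IRF4 peak lacked a Junb-deficient counterpart, and these regions, chosen after their values were seen, are given as values only. The region at Prkch, which encodes a protein kinase C isoform, held 6 JunB peaks, 2 BATF peaks and 2 Junb-sufficient IRF4 peaks, and no Junb-deficient one. The regions at Rala, a small GTPase gene, and at Olfr56 and the interferon-inducible GTPase gene Ifi47 held 4 JunB peaks each, with 3 and 2 BATF peaks and 2 against 0 IRF4 peaks. The region nearest Lrrc8d had 4 JunB peaks, no BATF peak and 3 against 0 IRF4 peaks. Also chosen after its values were seen, a region with a partial deficit lay at Jak1, which encodes a kinase of cytokine receptors. It (chr4:100855516-100886378) held 6 JunB peaks, 3 BATF peaks and 5 against 2 IRF4 peaks.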
